A study of Arabidopsis thaliana with 8 samples.

Results

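The genes described here are 10 Arabidopsis thaliana loci that control, transport or oxidise seed tannins. They were chosen by name from the known tannin pathway and make up 10 of the 34133 genes in the deposited table. The regulators are TT2 (AT5G35550), TT8 (AT4G09820), TTG1 (AT5G24520), TT16 (AT5G23260), TT1 (AT1G34790) and TTG2 (AT2G37260). The transport genes are TT12 (AT3G59030), AHA10 (AT1G17260) and TT19 (AT5G17220, GSTF12 in RefSeq), and the oxidase gene is TT10 (AT5G48100, also called LAC15).

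RNA was sequenced from laser-captured endosperm at 6 days after pollination (DAP), with 2 libraries for each of 4 crosses. In ein2-5 x ein2-5 both parents carried ein2-5, which removes the function of EIN2, the gene for the central transducer of ethylene signalling. In the hybrids, ein2-5 x Col-0 and Col-0 x ein2-5, the other parent was the Col-0 wild type, while both parents of Col-0 x Col-0 were wild type. Which name of a cross stands for the mother is not stated in the labels, so the name before the x is read here as the maternal parent. In such crosses the seed coat carries the mother's genotype alone, while the endosperm carries genomes of both parents. Every library came from endosperm at 6 DAP, so the comparisons are between parental genotypes at the same time after pollination. Whether development had reached the same point in each cross was not tested. The labels do not say whether the libraries of a cross came from separate plants, and p-values therefore measure the spread between these samples, which may be technical.

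Proanthocyanidins, or condensed tannins, colour the Arabidopsis seed coat brown. They are made in the endothelium, the innermost layer of the seed coat, and stored in its vacuoles, and mutants without them have pale, transparent testa (TT) seeds. A complex of a MYB protein (TT2), a bHLH protein (TT8) and a WD40 protein (TTG1) switches on the late enzymes of the pathway and the vacuolar transporter TT12. After transport, the laccase TT10 oxidises the tannins and the seed turns brown.

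A MYB-bHLH-WD40 complex can bind AC elements and E-boxes, so these letters were searched, on both strands, in the window from 250 bases before to 50 bases after each RefSeq gene start in assembly TAIR10.1. All 10 genes were matched to a window. The AC element ACCAACC was in the windows of 2 genes, TT2 and TT8, and in 3.29% of 27443 windows of protein-coding genes. The AC elements ACCTACC (1.38% of windows) and ACCTAAC (2.88%) were in none of the 10. The E-box CANNTG was in 8 of the 10 and in 61.7% of all windows, and the G-box CACGTG, which is an E-box too, was in TTG2 alone, against 7.68% of all windows. The stretches that hold ACCAACC are shown because TT2 and TT8 are partners in the complex; the match, in capitals, is a description of the letters and not evidence of binding. In TT2 it starts 29 bases into the transcript, on the plus strand of chr5:13726760-13726789. In TT8 it starts at base -114 relative to the gene start, within the 250 upstream bases on the plus strand of chr4:6181631-6181880.
TT2: aagacaattgtACCAACCacacaaccacaa
TT8: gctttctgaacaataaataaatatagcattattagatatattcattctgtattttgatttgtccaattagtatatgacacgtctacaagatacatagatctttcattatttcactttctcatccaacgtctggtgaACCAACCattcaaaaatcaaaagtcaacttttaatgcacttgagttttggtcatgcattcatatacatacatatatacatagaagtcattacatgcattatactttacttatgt

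Transcript levels are FPKM (fragments per length of transcript and per number of mapped fragments), as the authors deposited them. EIN2 itself was listed at 19.7 and 23.7 FPKM in the ein2-5 x ein2-5 libraries and 26.2 and 22.2 in those of ein2-5 x Col-0. It was listed at 31.4 and 50.03 FPKM in those of Col-0 x ein2-5 and 35.7 and 54.8 in those of Col-0 x Col-0. Its transcript was thus detected in every library. Relative depth, estimated from the ratios of low values between libraries, spanned a 3.02-fold range. It was lowest in Col-0 x Col-0 replicate 1, where 123 genes were at 0 that exceeded 2 FPKM in each of the other 7 libraries. On a transcript of 1.5 kb, 1 fragment was worth about 0.427 to 1.29 FPKM. All 10 genes passed the filter on low values, 1 FPKM or more in 2 or more libraries, which 19719 genes passed.

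The 10 genes differed widely in level. TT19 averaged 129 FPKM over the 8 libraries, TTG1 54.7 and TT10 39.4, which corresponds to medians of about 124.3, 103.3 and 78.8 fragments per library. TT2, TT1, TT16 and TT8 lay close together at 6.44, 6.43, 6.39 and 5.97 FPKM, with medians of 5.8 to 11.5 fragments. TT12 at 2.75 FPKM, AHA10 at 2.23 and TTG2 at 1.76 were the lowest, with medians of 2.9 to 6.6 fragments. The values of the last 7 genes therefore carry a large counting error, while the first 3 have the most fragments.

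When both parents carried ein2-5, most of these genes were at their highest. The mean of ein2-5 x ein2-5 was the highest of the 4 crosses for 9 of the 10 genes, and both ein2-5 x ein2-5 libraries lay above both Col-0 x Col-0 libraries for those 9, where 27.4% of all genes did, and 0 of 10 lay below without overlap, where 10.4% did. The exception was TTG1. For TT8, TT16, TT1, TT12, AHA10 and TT10, 6 of 10, both ein2-5 x ein2-5 libraries lay above all 6 other libraries, against 11.2% of all genes. The margin was small in TT16 (7.78 against 7.57 FPKM), TT1 (7.51 against 7.37) and AHA10 (2.54 against 2.27). No gene of the 10 passed limma's test at an adjusted p under 0.05, and over all genes tested 2 did (0.0101%). Fewer cells of a type and less RNA per cell cannot be told apart in such bulk samples.

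**Figure D1:**
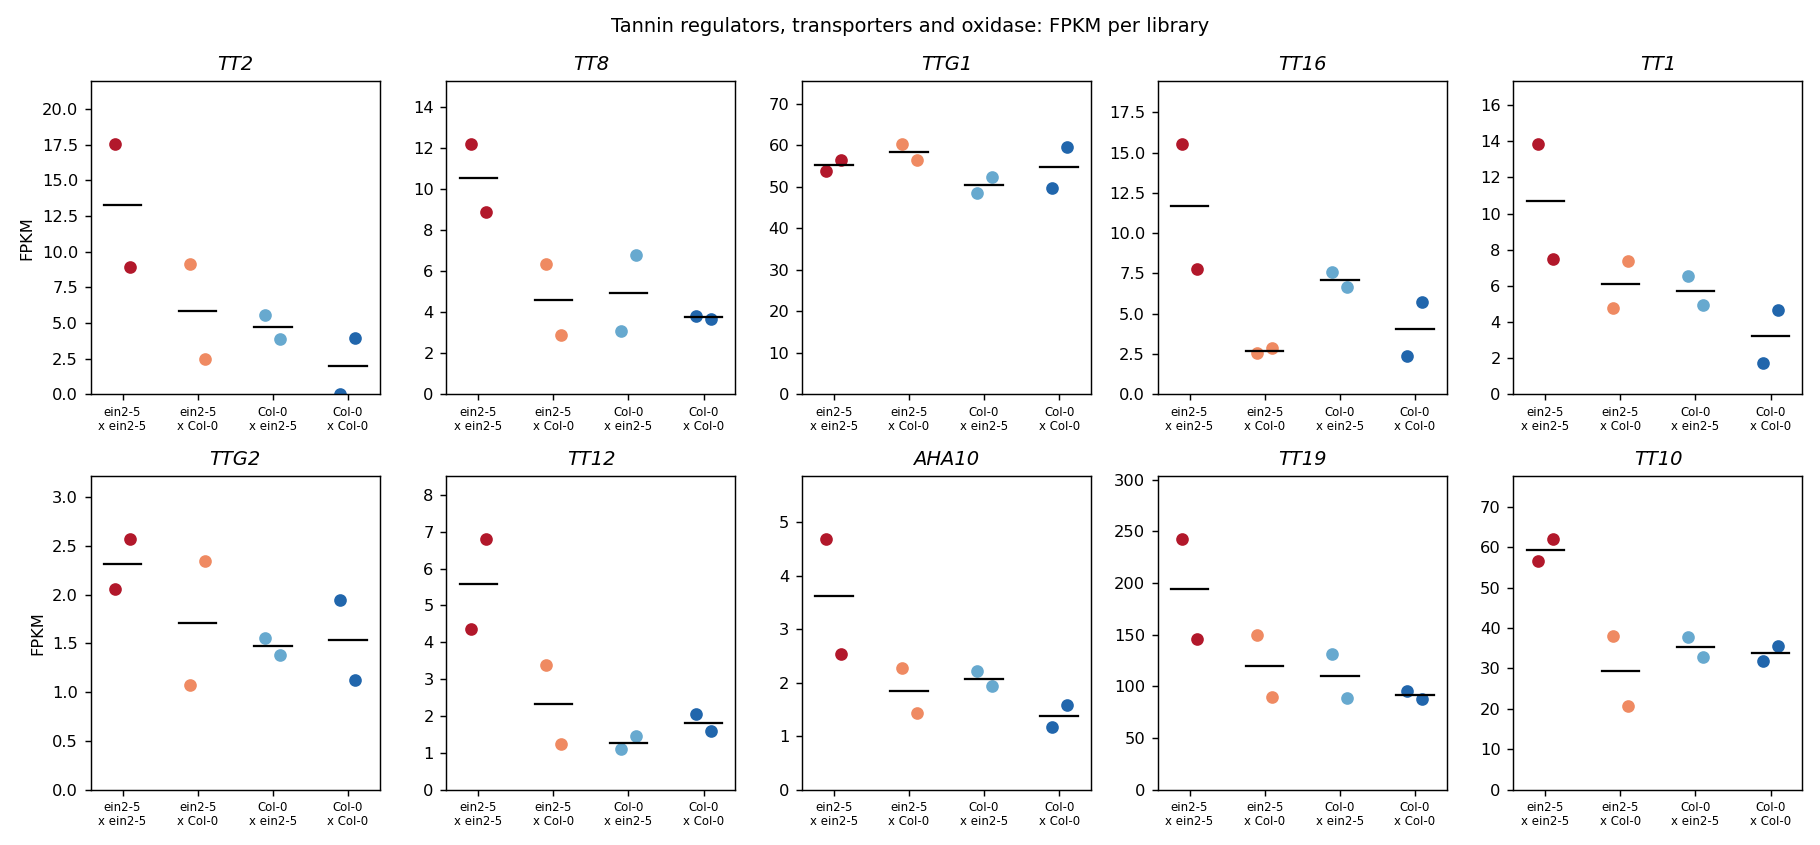
FPKM of each of the 10 genes (vertical axes, each with its own scale from 0) in the 4 crosses, with a point for each of the 2 libraries and a bar for their mean. Both ein2-5 x ein2-5 libraries lie above both Col-0 x Col-0 libraries in every panel but that of TTG1.

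TT2, the MYB protein that gives the complex its target genes, measured 17.6 and 8.92 FPKM in the ein2-5 x ein2-5 libraries, 9.12 and 2.50 in those of ein2-5 x Col-0, 5.55 and 3.91 in those of Col-0 x ein2-5, and 0 and 3.98 in those of Col-0 x Col-0. The ein2-5 x ein2-5 libraries did not overlap with those of Col-0 x Col-0, but the lower of them lay just below ein2-5 x Col-0 replicate 1. The log2 difference from Col-0 x Col-0 was 2.61 ± 0.81 (SE of the model, on the log2(FPKM + 1) scale, which understates low genes), with an adjusted p of 0.393 in limma. The 0 came from the shallowest library, in which 3 fragments would have given 5.38 FPKM, above the level of its partner. Without that library the log2 difference was 1.45.

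TT8, the bHLH partner, measured 12.2 and 8.91 FPKM in the ein2-5 x ein2-5 libraries, 6.34 and 2.90 in those of ein2-5 x Col-0, 3.09 and 6.79 in those of Col-0 x ein2-5, and 3.84 and 3.69 in those of Col-0 x Col-0. Both ein2-5 x ein2-5 libraries were above the other 6, and the other 3 crosses overlapped. The mean was 2.81-fold that of Col-0 x Col-0, with a log2 difference of 1.26 ± 0.46 (adjusted p = 0.419, limma).

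TTG1, the WD40 protein that also serves trichome and root hair patterning, was nearly level. It measured 53.7 and 56.6 FPKM in the ein2-5 x ein2-5 libraries, 60.4 and 56.4 in those of ein2-5 x Col-0, 48.5 and 52.4 in those of Col-0 x ein2-5, and 49.8 and 59.6 in those of Col-0 x Col-0. The ein2-5 x ein2-5 values lay between the Col-0 x Col-0 values, and the log2 difference was 0.02 ± 0.15 (adjusted p = 0.98, limma), below 0 under quantile normalization (-0.10), median-ratio scaling (-0.09) and a depth covariate (-0.08). Among the 3 proteins of the complex, the MYB and bHLH transcripts were thus at their highest mean in ein2-5 x ein2-5, while the WD40 transcript had its highest mean in ein2-5 x Col-0.

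TT16 is a MADS-box protein of the endothelium that is needed for tannin there. It measured 15.6 and 7.78 FPKM in the ein2-5 x ein2-5 libraries, 2.59 and 2.85 in those of ein2-5 x Col-0, 7.57 and 6.66 in those of Col-0 x ein2-5, and 2.36 and 5.73 in those of Col-0 x Col-0. All 4 libraries with an ein2-5 father were above all 4 with a Col-0 father. Against Col-0 x Col-0, ein2-5 x ein2-5 differed by 1.34 ± 0.46 (log2, adjusted p = 0.408, limma).

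TT1, a zinc finger protein of the seed coat, measured 13.9 and 7.51 FPKM in the ein2-5 x ein2-5 libraries, 4.80 and 7.37 in those of ein2-5 x Col-0, 6.53 and 4.93 in those of Col-0 x ein2-5, and 1.74 and 4.69 in those of Col-0 x Col-0. Each of the 3 crosses with an ein2-5 parent lay above Col-0 x Col-0 in both libraries, by as little as 4.80 against 4.69 FPKM. The log2 difference of ein2-5 x ein2-5 from Col-0 x Col-0 was 1.51 ± 0.48 (adjusted p = 0.393, limma).

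TTG2, a WRKY protein that acts downstream of TTG1, was the lowest of the 10. It measured 2.06 and 2.57 FPKM in the ein2-5 x ein2-5 libraries, 1.07 and 2.35 in those of ein2-5 x Col-0, 1.56 and 1.38 in those of Col-0 x ein2-5, and 1.94 and 1.12 in those of Col-0 x Col-0. These values rest on about 1.9 to 7.7 fragments a library. Both ein2-5 x ein2-5 libraries were above those of Col-0 x ein2-5 and Col-0 x Col-0, by as little as 2.06 against 1.94 FPKM, and they overlapped with ein2-5 x Col-0. The log2 difference was 0.40 ± 0.44 (adjusted p = 0.757, limma).

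The transport genes act between synthesis and storage. TT12, the vacuolar MATE transporter of tannin precursors, measured 4.36 and 6.80 FPKM in the ein2-5 x ein2-5 libraries, 3.39 and 1.24 in those of ein2-5 x Col-0, 1.1 and 1.45 in those of Col-0 x ein2-5, and 2.05 and 1.58 in those of Col-0 x Col-0. The ein2-5 x ein2-5 libraries were the highest of the 8, and those of Col-0 x ein2-5 lay below both of Col-0 x Col-0. The log2 difference of ein2-5 x ein2-5 from Col-0 x Col-0 was 1.20 ± 0.47 (adjusted p = 0.439, limma).

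AHA10, a proton pump needed for tannin storage in the vacuole, measured 4.69 and 2.54 FPKM in the ein2-5 x ein2-5 libraries, 2.27 and 1.42 in those of ein2-5 x Col-0, 2.21 and 1.94 in those of Col-0 x ein2-5, and 1.18 and 1.58 in those of Col-0 x Col-0. The lower ein2-5 x ein2-5 library lay just above the highest of the other 6, and the log2 difference from Col-0 x Col-0 was 0.92 ± 0.43 (adjusted p = 0.5, limma).

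TT19, a glutathione S-transferase needed for the passage of anthocyanin and tannin precursors to the vacuole, was the most abundant of the 10. It measured 243 and 146 FPKM in the ein2-5 x ein2-5 libraries, 149.9 and 89.9 in those of ein2-5 x Col-0, 131 and 88.6 in those of Col-0 x ein2-5, and 95.5 and 87.3 in those of Col-0 x Col-0. Both ein2-5 x ein2-5 libraries were above both Col-0 x Col-0 libraries, while each hybrid cross had 1 library within the range of Col-0 x Col-0 and 1 above it. The mean of ein2-5 x ein2-5 was 2.13-fold that of Col-0 x Col-0, a log2 difference of 1.04 ± 0.32. Its adjusted p of 0.388 (limma) was the smallest of any of the 10 genes in any comparison.

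TT10, the laccase of seed browning, measured 56.6 and 62.1 FPKM in the ein2-5 x ein2-5 libraries, 37.9 and 20.8 in those of ein2-5 x Col-0, 37.8 and 32.9 in those of Col-0 x ein2-5, and 31.9 and 35.5 in those of Col-0 x Col-0. No library of the other 3 crosses exceeded 37.9 FPKM, and those 3 crosses overlapped. The mean was 1.76-fold that of Col-0 x Col-0, with a log2 difference of 0.80 ± 0.26 (adjusted p = 0.398, limma), and it stayed between 0.72 and 0.87 whichever library was left out.

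All 10 log2 differences between ein2-5 x ein2-5 and Col-0 x Col-0 were above 0, as were 61.6% over all genes, TTG1 only in the values as deposited. Over the 10 genes the median log2 difference between ein2-5 x ein2-5 and Col-0 x Col-0 was 1.12, against 0.12 over all genes tested, 1.00 above it. At an unadjusted p under 0.05, 7 of the 10 were higher in ein2-5 x ein2-5, where 8.44% of all genes were, and 0 were lower, where 2.13% were. The 7 were TT2, TT8, TT16, TT1, TT12, TT19 and TT10. Leaving out Col-0 x Col-0 replicate 1 gave 1 such gene of the 10 (5.7% of all genes), leaving out its replicate 2 gave 4 (14.1%), and leaving out ein2-5 x ein2-5 replicate 1 gave 2 (4.82%). The count of 9 genes without overlap was 8 after median-ratio scaling (20.4% of all genes) and 8 after quantile normalization (17.7%), which bring the median of all genes to 0.02 and -0.03. The count of 6 genes above all other libraries was 4 under each, against 6.9% of all genes after median-ratio scaling and 5.54% after quantile normalization.

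**Figure D2:**
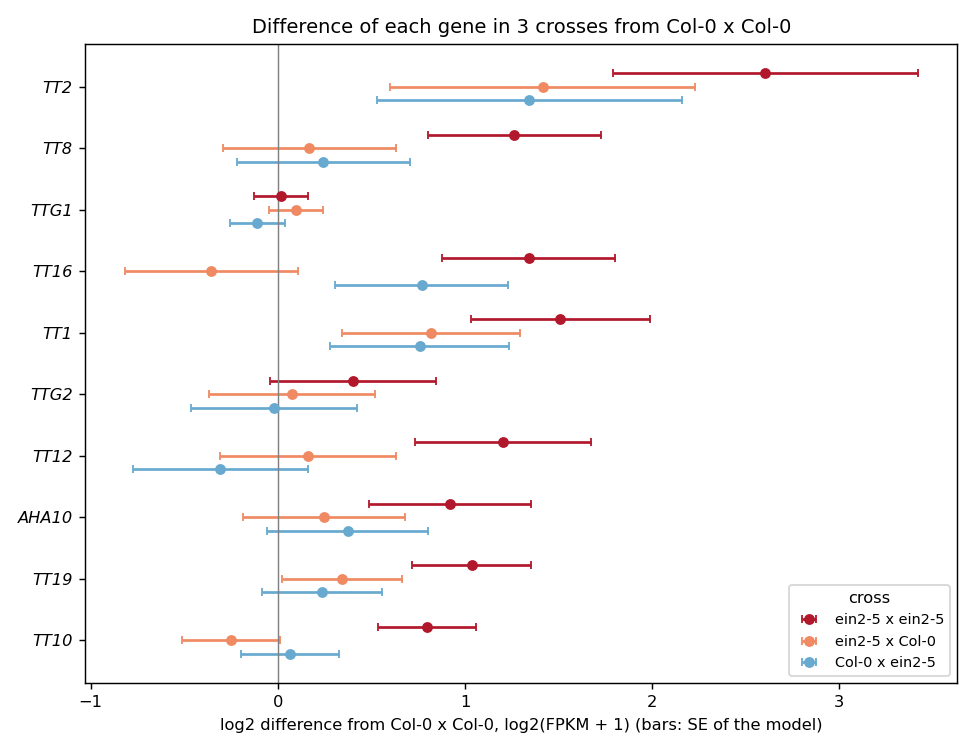
Log2 difference of each gene from Col-0 x Col-0 (horizontal axis, log2(FPKM + 1) scale) in ein2-5 x ein2-5, ein2-5 x Col-0 and Col-0 x ein2-5, with the standard error of the limma model as bars. The ein2-5 x ein2-5 points reach 2.61 in TT2 and lie farthest to the right for every gene but TTG1.

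With ein2-5 in the mother alone, the median of the tannin genes lay close to the wild type. For ein2-5 x Col-0 relative to Col-0 x Col-0 the median log2 difference of the 10 genes was 0.16, against 0.02 over all genes. TT1 was the 1 gene with both ein2-5 x Col-0 libraries above both Col-0 x Col-0 libraries (15% of all genes), and 0 were below (12.5%). The values ran from -0.35 ± 0.46 in TT16 to 1.42 ± 0.81 in TT2. None of the 10 passed at an adjusted p (0% of all genes did in limma) or at an unadjusted p under 0.05, where 2.56% of all genes were higher and 1.44% lower. The libraries of ein2-5 x Col-0 were unlike: replicate 1 was higher for 7 of the 10 genes, with TT2 at 9.12 against 2.50 FPKM and TT10 at 37.9 against 20.8, and the median over the 10 was 0.51 without replicate 2 and 0.0041 without replicate 1. The 3 comparisons with Col-0 x Col-0 share its libraries.

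With ein2-5 in the father alone, the median of the tannin genes was again close to the wild type. For Col-0 x ein2-5 relative to Col-0 x Col-0 the median of the 10 genes was 0.24, against 0.06 over all genes. Without overlap, TT16, TT1 and AHA10 were higher, 3 of 10 against 16.8% of all genes, and TT12 was lower, 1 of 10 against 9.22%, which is near the share over all genes. TT16 differed by 0.77 ± 0.46 and TT12 by -0.31 ± 0.47 (log2). None of the 10 passed at an adjusted p (0% of all genes in limma) or at an unadjusted p under 0.05, where 2.18% of all genes were higher and 0.74% lower.

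Between the reciprocal hybrids, ein2-5 x Col-0 and Col-0 x ein2-5, TT16 was the 1 gene of the 10 at an unadjusted p under 0.05 in limma. It was lower in ein2-5 x Col-0, at 2.59 and 2.85 FPKM, against 7.57 and 6.66 in Col-0 x ein2-5, a log2 difference of -1.12 ± 0.46 with an unadjusted p of 0.0422 and an adjusted p of 1 (limma). The TT16 values rest on about 3.2 fragments in each ein2-5 x Col-0 library and about 9.7 in each Col-0 x ein2-5 library. Without overlap, TT16 alone was lower, 1 of 10 against 19.4% of all genes. TTG1 alone was higher, 1 of 10 against 16.1%, by 0.21 ± 0.15. Neither count exceeded the share over all genes. The other 8 genes overlapped, with log2 differences from -0.31 in TT10 to 0.47 in TT12, and the median of the 10 was 0.07. At an adjusted p, 0% of all genes were called in limma, and at an unadjusted p under 0.05 1.89% were lower and 1.13% higher.

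Averaged over the other parent's genotype, all 10 genes had a maternal ein2-5 effect above 0, where 56.7% of all genes did, with a median of 0.48 against 0.04 over all genes. The maternal effect was 1.34 ± 0.58 for TT2, 0.84 ± 0.33 for TT12, 0.78 ± 0.34 for TT1 and 0.57 ± 0.23 for TT19, and these 4 had an unadjusted p under 0.05 (5.01% of all genes were higher and 2.08% lower at that level). For 0 of the 10 were all 4 libraries with an ein2-5 mother above, or all below, the 4 with a Col-0 mother (2.26% and 1.19% of all genes). None passed at an adjusted p (0% of all genes), the smallest being 0.693 for TT12 and TT19 in limma.

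The paternal ein2-5 effect was above 0 for 9 of the 10 genes (62.6% of all genes), with a median of 0.54 against 0.08 over all genes. TT16 had the paternal effect with the smallest unadjusted p, 0.00581, at 1.23 ± 0.33 (adjusted p = 0.787, limma), beside a maternal effect of 0.11 ± 0.33. It was the 1 gene of the 10 with all 4 ein2-5-father libraries above all 4 Col-0-father libraries, against 2.66% of all genes, and for 0 of the 10 were they all below (0.72%). TT10 followed at 0.56 ± 0.19 (unadjusted p = 0.0178), and 5.05% of all genes were higher and 1.03% lower at an unadjusted p under 0.05. None of the 10 passed at an adjusted p (0% of all genes). The maternal and paternal effects are fitted to the same 8 libraries as the comparisons of crosses and are not independent of them.

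**Figure D3:**
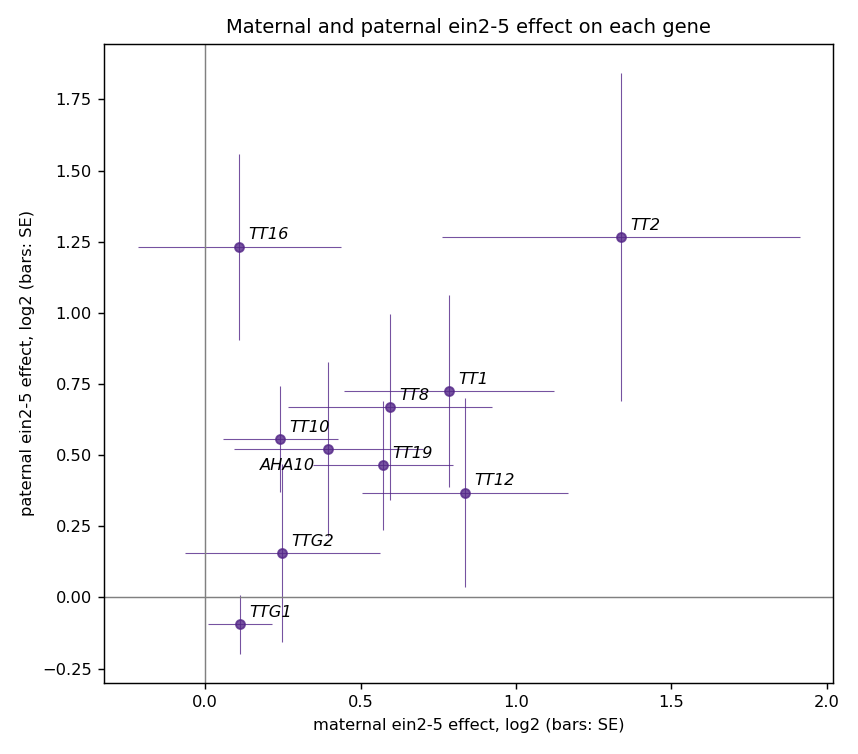
Maternal ein2-5 effect (horizontal axis) and paternal ein2-5 effect (vertical axis) on each of the 10 genes, both as log2 differences averaged over the other parent, with standard errors as bars. TT16 lies at 0.11 and 1.23, TT12 at 0.84 and 0.37, and TTG1 near 0 on both axes.

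The interaction asks whether the father's genotype matters more with a mutant mother. The value, which is the paternal effect with an ein2-5 mother minus that with a Col-0 mother, was 0.98 ± 0.37 for TT10 (unadjusted p = 0.0301, adjusted p = 1, limma), and TT10 was the 1 gene of the 10 at an unadjusted p under 0.05 (2.04% of all genes were higher and 1.32% lower at that level, and 0% were called at an adjusted p). For TT12 it was 1.35 ± 0.66 (unadjusted p = 0.0781), for TT16 0.93 ± 0.65 and for TT8 0.85 ± 0.65. TT2 at -0.16 ± 1.15 and TT1 at -0.07 ± 0.68 had interactions near 0 with wide errors, and the means of both hybrid crosses lay between those of ein2-5 x ein2-5 and Col-0 x Col-0 in both genes.

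Genes on the list of flavonoid and tannin enzymes were mostly higher in ein2-5 x ein2-5 too. Of the 9, 8 were higher in ein2-5 x ein2-5 than in Col-0 x Col-0 (61.6% of all genes), with a median log2 difference of 0.78. Of these, 7 were higher without overlap (27.4%) and 6 at an unadjusted p under 0.05 in limma (8.44%), and 0 passed at an adjusted p. FLS1 and UGT80B1, also on the list, were nearly level, with log2 differences of -0.01 ± 0.43 and 0.04 ± 0.23. TT4, the chalcone synthase, measured 447 and 268 FPKM in ein2-5 x ein2-5 against 256 and 166 in Col-0 x Col-0. BAN, the anthocyanidin reductase specific to tannins, measured 249 and 174 FPKM in ein2-5 x ein2-5 against 127 and 115 in Col-0 x Col-0. LDOX, the enzyme that makes its anthocyanidin substrate, measured 237 and 171 FPKM in ein2-5 x ein2-5 against 98.4 and 94.1 in Col-0 x Col-0. For BAN, LDOX, DFR and TT5, 4 of 9, both ein2-5 x ein2-5 libraries were above the other 6, against 11.2% of all genes. DFR, the dihydroflavonol reductase, measured 197 and 139.7 FPKM in ein2-5 x ein2-5 against 86.0 and 78.0 in Col-0 x Col-0.

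Relatives of the regulators were mostly low. Of 15 MYB and bHLH relatives and seed coat partners, 8 passed the filter, and 6 of these 8 were higher in ein2-5 x ein2-5 (61.6% of all genes), with a median of 0.85. Without overlap, MYB11, STK, SHP1 and KAN4 were higher, 4 of 8 against 27.4% of all genes. Among these, MYB11 and KAN4 lay at a level of few fragments. MYB11 measured 0.803 and 2.51 FPKM in ein2-5 x ein2-5 against 0 and 0.581 in Col-0 x Col-0. KAN4 measured 1.76 and 0.549 FPKM in ein2-5 x ein2-5 against 0 and 0 in Col-0 x Col-0. At an unadjusted p under 0.05 1 of 8 was higher (8.44%), and 0 passed at an adjusted p. MYB5, a partner of the complex in the seed coat, measured 12.6 and 12.1 FPKM in ein2-5 x ein2-5 against 12.8 and 4.20 in Col-0 x Col-0. SHP1, a MADS-box protein of the ovule and seed coat, measured 20.1 and 13.0 FPKM in ein2-5 x ein2-5 against 7.86 and 7.24 in Col-0 x Col-0, without overlap. Its close relative SHP2 overlapped, at 5.40 and 10.7 FPKM in ein2-5 x ein2-5 against 6.80 and 2.61 in Col-0 x Col-0. STK, another ovule MADS-box gene and the 1 partner at an unadjusted p under 0.05, measured 3.11 and 4.89 FPKM in ein2-5 x ein2-5 against 2.1 and 0.751 in Col-0 x Col-0. EGL3, a bHLH protein related to TT8, was lower without overlap at a level of few fragments, with 0.452 and 0.282 FPKM in ein2-5 x ein2-5 against 2.56 and 0.981 in Col-0 x Col-0. Genes for the anthocyanin MYB proteins, namely MYB75, MYB90, MYB113 and MYB114, and for the flavonol regulator MYB111, were listed at 0 in all 8 libraries.

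AHA10 and TT10 belong to families of pumps and laccases with other members in the table. Of 10 other plasma membrane proton pumps, 7 were tested, and their median log2 difference between ein2-5 x ein2-5 and Col-0 x Col-0 was 0.03. Without overlap, 0 of the 7 were higher (27.4% of all genes) and 0 were lower (10.4%). The abundant pumps AHA1, AHA11, AHA2 and AHA4 averaged 106, 102, 74.1 and 39.7 FPKM over the 8 libraries, against 2.23 for AHA10. Among 16 other laccases only 4 were tested, with a median of 0.86 and 2 higher without overlap (27.4% of all genes), and none passed at an adjusted p. LAC14 was the most abundant of them, at 37.5 and 11.0 FPKM in ein2-5 x ein2-5 against 8.32 and 4.79 in Col-0 x Col-0, without overlap. LAC8 did not overlap either, at 8.07 and 3.36 FPKM in ein2-5 x ein2-5 against 1.69 and 1.62 in Col-0 x Col-0. LAC13 averaged 1.96 FPKM and LAC5 0.751 over the 8 libraries, and TT10 at 39.4 FPKM was the most abundant laccase transcript per length.

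Markers of the tissues around the captured endosperm were read in the same libraries. Seed coat mucilage markers, which mark the outer layer of the seed coat, summed to 94.7 to 115.1 FPKM in the ein2-5 x ein2-5 libraries, 75.6 to 84.8 in those of ein2-5 x Col-0, 81.2 to 92.6 in those of Col-0 x ein2-5, and 75.85 to 85.3 in those of Col-0 x Col-0. Of 7 such markers, 4 were higher in ein2-5 x ein2-5 than in Col-0 x Col-0 (61.6% of all genes), 3 of them without overlap (27.4%) and 2, MUM2 and GL2, at an unadjusted p under 0.05 (8.44%), with a median of 0.47, and none was at 0 in all libraries. Their most abundant members GATL5 and AP2 averaged 21.8 and 13.9 FPKM, with log2 differences of -0.17 ± 0.23 and -0.22 ± 0.29. MYB61 and PRX36 averaged 11.9 and 11.7 FPKM, with log2 differences of 0.75 ± 0.33 and 0.47 ± 0.69. The sum was highest in both ein2-5 x ein2-5 libraries, as were 6 of the tannin genes, and the part of seed coat RNA in the result was not tested.

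Of 12 endosperm markers, 11 were tested, and their levels differed widely. HDG3, SUC5, PHE1 and ZOU averaged 276, 251, 171 and 158 FPKM, while EDE1 averaged 14.7, FIS2 13.2, AGL62 6.71 and MEA 4.53. Their sum was 1079 to 1324 FPKM in the ein2-5 x ein2-5 libraries, 1057 to 1137 in those of ein2-5 x Col-0, 992.5 to 1042 in those of Col-0 x ein2-5, and 955 to 1116 in those of Col-0 x Col-0, and the endosperm gene ESF1.1 was listed at 0 in all. Relative to Col-0 x Col-0, 8 of 11 were higher in ein2-5 x ein2-5 (61.6% of all genes), with a median of 0.17. PHE1, FWA, MEA, FIS2 and AGL62 were higher without overlap, 5 of 11 against 27.4% of all genes, and the same 5 had an unadjusted p under 0.05 (8.44%). MEA, a Polycomb protein of the endosperm, measured 12.7 and 5.45 FPKM in ein2-5 x ein2-5 against 1.49 and 1.72 in Col-0 x Col-0. AGL62, a MADS-box protein of the uncellularised endosperm, measured 23.5 and 7.92 FPKM in ein2-5 x ein2-5 against 3.42 and 2.62 in Col-0 x Col-0. HDG3, SUC5 and MYB118 were nearly level, with means in ein2-5 x ein2-5 of 1.12-, 1.08- and 1.0-fold those of Col-0 x Col-0. ZOU, EDE1 and ALE1 were lower, at 0.859-, 0.827- and 0.654-fold. The endosperm markers therefore did not move together. The 5 without overlap were higher in the ein2-5 x ein2-5 libraries along with the tannin genes, and their part in the result was not tested. Embryo markers summed to 495 to 517.5 FPKM in the ein2-5 x ein2-5 libraries, 626 to 651 in those of ein2-5 x Col-0, 541 to 580 in those of Col-0 x ein2-5, and 512 to 629 in those of Col-0 x Col-0, led by LEC1 at 408 FPKM and PDF1 at 115, with WOX8 at 21.9, ATML1 at 20.1 and WUS at 0 in all. Of 7 embryo markers tested, 3 were higher in ein2-5 x ein2-5 (61.6% of all genes), 2 without overlap (27.4%), with a median of -0.20. At an adjusted p, 0 of the marker genes in the 3 lists passed.

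The level of each list in each library sets the tannin genes beside their enzymes. The score of a list is the mean of its log2(FPKM + 1) values in a library, each centred on the mean over the 8 libraries. The 10 tannin genes scored 0.85 and 0.51 in the ein2-5 x ein2-5 libraries, 0.05 and -0.37 in those of ein2-5 x Col-0, -0.06 and -0.13 in those of Col-0 x ein2-5, and -0.64 and -0.22 in those of Col-0 x Col-0. The enzymes scored 0.74 and 0.30 in the ein2-5 x ein2-5 libraries, 0.26 and -0.47 in those of ein2-5 x Col-0, 0.04 and -0.29 in those of Col-0 x ein2-5, and -0.38 and -0.19 in those of Col-0 x Col-0. In both lists replicate 1 was the higher library of ein2-5 x ein2-5, of ein2-5 x Col-0 and of Col-0 x ein2-5. The mucilage score was highest in ein2-5 x ein2-5 replicate 2 (0.39) and only 0.06 in replicate 1, the opposite order. Of that list PRX36 differed most between these libraries, at 4.75 FPKM in replicate 1 and 29.2 in replicate 2. GL2 (22.0 and 12.7) and MYB61 (19.3 and 14.5) were higher in replicate 1, like the tannin genes. The rest of the mucilage list was higher in replicate 2, so the opposite order did not hold for every marker.

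**Figure D4:**
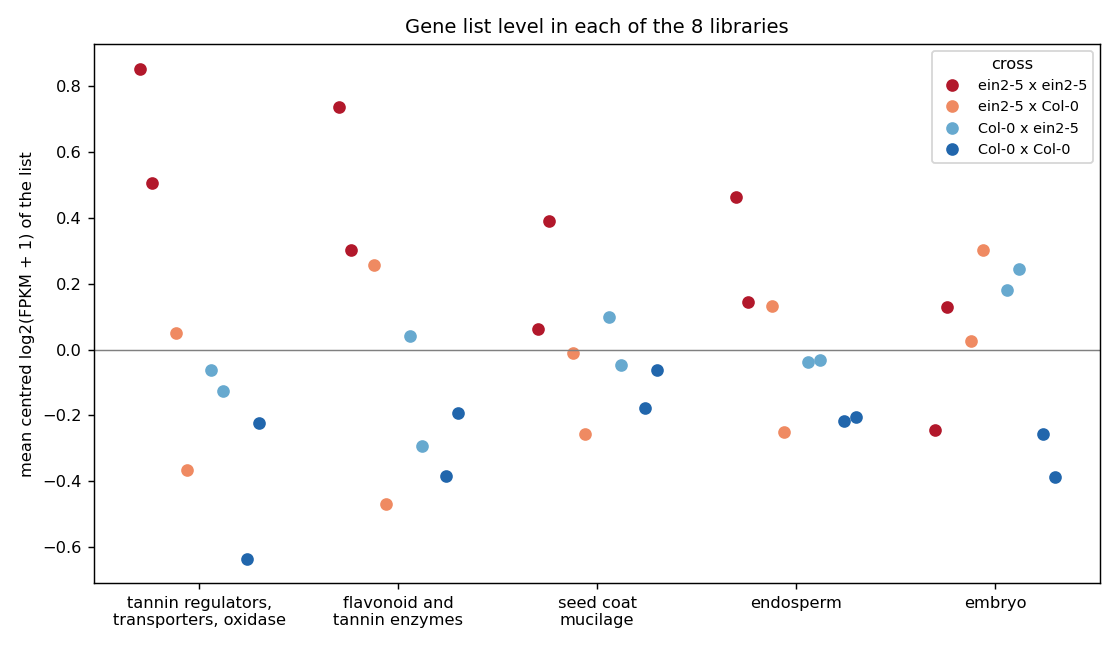
Score of 5 gene lists (mean centred log2(FPKM + 1), vertical axis) in each of the 8 libraries, coloured by cross. The tannin regulators, transporters and oxidase score 0.85 and 0.51 in ein2-5 x ein2-5 and at most 0.05 in the other 6 libraries, while the embryo list scores highest in ein2-5 x Col-0 replicate 2 (0.30).

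The profile of the 10 genes over the 8 libraries was also compared with every other tested gene of at least 10 FPKM in the mean, 12228 genes, by the root mean square difference of the centred log2 values. The 5 most like it were AT1G19310 (0.1), AT4G16380 (0.106), AT1G01630 (0.115), AT3G60910 (0.122) and CW14 (AT1G59650, 0.125). AT1G19310 measured 32.0 and 27.5 FPKM in the ein2-5 x ein2-5 libraries, 19.7 and 16.0 in those of ein2-5 x Col-0, 16.2 and 16.9 in those of Col-0 x ein2-5, and 13.2 and 15.9 in those of Col-0 x Col-0. AT4G16380 measured 51.8 and 35.8 FPKM in ein2-5 x ein2-5 against 15.7 and 18.8 in Col-0 x Col-0. Neither is on any of the gene lists used here, and the likeness is a description over 8 libraries.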

How the data were processed

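Endosperm of 4 crosses of Col-0 and ein2-5 was captured with a laser at 6 DAP, with 2 libraries per cross. The deposited table holds FPKM values, made by the authors with TopHat2 2.1.1, SAMtools 1.5 and Cufflinks 2.2.1 on TAIR10, per the submitters' processing notes. Options, and whether strand was used in counting, are not given in the sources used here, so overlapping and antisense transcripts cannot be told apart. All 8 value columns were used (0 left out). RefSeq TAIR10.1 matched 31416 identifiers and gave symbols, transcript lengths and sequences.

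Values were analysed as log2(FPKM + 1) with limma 3.58.1 under R 4.3.3 (a moderated two-sided test, with a trend of the variance on the mean) on group means of the 4 crosses, with the spread shared over all 8 libraries. The 19719 genes at 1 FPKM or more in 2 or more libraries were tested. P-values were adjusted by Benjamini-Hochberg over these genes within each of 7 comparisons, at a threshold of 0.05. Several comparisons use the same libraries and are not independent. The fit was tested on simulated data. A paternal effect in the text is the mean of the ein2-5-father crosses minus that of the Col-0-father crosses, and the maternal effect likewise.

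The table gives no counts. Relative depth was estimated from the ratios between libraries of low values, in genes above 0 in only a few libraries. The FPKM of 1 fragment was then estimated from low values of single-transcript genes of at least 1.5 kb, with a length correction of 240 nt. Of 1011 such values 56.3% were whole fragments within 0.06, against 12% by chance, so fragment numbers are approximate and cover counting error alone.

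The 10 genes, the other gene lists and the tests were chosen with earlier results of these data known. Named genes are all 10, up to 4 of the most abundant genes per other list, and the 5 genes of most like profile. TT5, FLS1, UGT80B1, EGL3, MYB11, KAN4, LAC5, MUM2, GL2 and the genes listed at 0 were named after their values were seen. So were the endosperm markers FWA, MEA, FIS2, AGL62, EDE1, MYB118 and ALE1. Alternatives were pseudocounts, filters, scalings, a replicate block, depth as a covariate, only the groups compared, and each library left out.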

Additional observations from a re-analysis of the deposited data

How the results depend on the processing

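None of the 10 genes passed at an adjusted p under 0.05 in any comparison under any of 16 alternative settings, and the direction of 43 of 70 values held in all of them. The count of 2 genes called between ein2-5 x ein2-5 and Col-0 x Col-0 became 0 with a pseudocount of 0.1, 0 with a filter of 5 FPKM (under which 7 of the 10 genes were tested), 4 after median-ratio scaling, 0 with depth as a covariate and 1 with only the groups compared. The count of 0 for ein2-5 x Col-0, relative to Col-0 x Col-0 and to Col-0 x ein2-5, became 1 and 1 with a pseudocount of 0.1 and 2 and 1 with depth as a covariate. Nothing in the labels says that the replicate numbers pair the libraries. Same-numbered deviations from the mean of a cross correlated weakly, at 0.00866 to 0.136 over 6 pairs of crosses. With a replicate block the count of 2 was 0. The cause of these shifts was not tested.

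Leaving out 1 library at a time, genes called numbered 0 to 33 for ein2-5 x ein2-5, 0 to 12 for ein2-5 x Col-0 and 0 to 16 for Col-0 x ein2-5, each relative to Col-0 x Col-0, 0 to 5 between the hybrids, 0 to 13 for the maternal effect, 0 to 10 for the paternal effect and 0 to 3 for the interaction; the highest count came without Col-0 x Col-0 replicate 2, except between the hybrids and for the interaction (without ein2-5 x Col-0 replicate 2). The median of the 10 genes spanned 0.87 to 1.33, 0.0041 to 0.51, 0.14 to 0.30 and -0.30 to 0.18 in the 4 comparisons of crosses in that order, and 0.27 to 0.73 for the interaction. The count at an unadjusted p under 0.05 spanned 1 to 7.

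The following values turned sign. Under quantile normalization TTG1 was -0.10 between ein2-5 x ein2-5 and Col-0 x Col-0 and -0.013 for the interaction, TTG2 -0.018 in ein2-5 x Col-0, TT10 -0.0061 in Col-0 x ein2-5, TT8 0.00023 between the hybrids and TT16 -0.0060 for the maternal effect. TTG1 between ein2-5 x ein2-5 and Col-0 x Col-0 was -0.092 after median-ratio scaling and -0.085 with depth as a covariate, where its interaction was -5.9e-05 and TTG2 in Col-0 x ein2-5 was 0.058.

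With 1 library left out, sign turns gave these ranges. Relative to Col-0 x Col-0, TTG1 in ein2-5 x ein2-5 spanned -0.11 to 0.14. For ein2-5 x Col-0 relative to Col-0 x Col-0, TT8 spanned -0.29 to 0.62, TTG1 -0.030 to 0.23, TT16 -0.86 to 0.15, TTG2 -0.27 to 0.42, TT12 -0.32 to 0.65, TT19 -0.023 to 0.71 and TT10 -0.67 to 0.17. For Col-0 x ein2-5 relative to Col-0 x Col-0, TT8 spanned -0.22 to 0.71, TTG1 -0.24 to 0.019, TTG2 -0.25 to 0.22, TT19 -0.043 to 0.51 and TT10 -0.034 to 0.16. For ein2-5 x Col-0 relative to Col-0 x ein2-5, TT2 spanned -0.69 to 0.84, TT8 -0.54 to 0.39, TT1 -0.21 to 0.33, TTG2 -0.25 to 0.44, TT12 -0.018 to 0.95, AHA10 -0.34 to 0.090, TT19 -0.26 to 0.47 and TT10 -0.73 to 0.10. For the maternal effect TT16 spanned -0.14 to 0.36, for the paternal effect TTG2 -0.018 to 0.33, and for the interaction TT2 -1.31 to 1.00, TTG1 -0.10 to 0.16, TT1 -0.59 to 0.46 and AHA10 -0.044 to 0.64.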
